A study of Mus musculus with 6 samples.

Results

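The 49 genes described here carry glucose and its products through glycolysis, the pentose phosphate pathway and the citrate cycle, with the transporters that move glucose and lactate across the cell membrane. They were chosen by symbol, and each was read on its brightest probe set by the mean of the 6 arrays. In all, 46 of the 49 were measured, among 18557 probe sets tested for 19324 named genes; Gpi1, Eno1 and G6pdx were not analysed here. Each sample, read on its own Affymetrix array, was of LSK cells, the bone marrow fraction that lacks lineage markers, carries cKit and Sca1, and holds blood stem cells and early progenitors. The N1IC group was 3 mice with lox-stop-lox N1-IC and Mx1-cre+, in which Cre removes a stop cassette and lets N1-IC, the active intracellular part of the receptor Notch1, be made. The WT group was 3 mice of the genotype Mx1-cre+. All 6 mice were 5 weeks old and had been given polyIC (3 injections of 20 mcg/g, the last 2 weeks earlier), with the age at injection given as 21 days. PolyIC switches on Cre through the interferon-responsive Mx1 promoter in many cell types. The controls therefore carry both the Cre transgene and the polyIC treatment. The treatment text of the labels speaks of Ncstn flox/flox mice, against the genotype labels, which set the groups used here. The 3 N1IC mice are female, and the WT mice are 2 males (replicates 1 and 3) and 1 female (replicate 2). The titles of WT replicates 1 and 2 carry a suffix b that the labels do not explain, and the other titles carry none.

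Glycolysis splits glucose into pyruvate in the cytosol. Pyruvate then becomes lactate through lactate dehydrogenase or enters the mitochondrion, where the pyruvate dehydrogenase complex feeds it to the citrate cycle. The pentose phosphate pathway branches off near the top of glycolysis and yields NADPH and ribose for nucleotides. Several steps have isozymes from different genes, which differ in tissue and in control. Blood stem cells are known for relying on glycolysis and for holding pyruvate back from the mitochondrion with pyruvate dehydrogenase kinases.

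Median intensity over all probe sets was 89.0 to 90.8 on the N1IC arrays and 89.0 to 92.4 on the WT arrays. Pearson's correlation across probe sets, which are not independent replicates, was 0.990 to 0.992 within N1IC, 0.985 to 0.989 within WT and 0.968 to 0.975 between the groups. The leading principal component, with 57.9% of the variance, separated N1IC from WT, and WT replicate 1 stood apart on the second (15.4%). Kit, the receptor used in the gate, lay between 11.45 and 11.57 log2 units in N1IC and between 11.58 and 11.94 in WT, while Cd34, a surface marker of progenitors, fell by 0.62. In all, 4 of 6 measured LSK markers fell and none rose, with Flt3 at -3.08, Slamf1 at -2.65 and Procr at -1.66. Of the marker genes of other cells, 8 of 11 T-lineage, 2 of 9 macrophage and 2 of 9 mast cell genes rose. Falls were called for 6 of 7 B-lineage, 5 of 7 megakaryocyte, 2 of 11 mature neutrophil and monocyte and 1 of 11 erythroid genes. Over all 18557 probe sets tested, 3.4% rose and 8.22% fell, at an adjusted p under 0.05 by limma. The erythroid share, 9.09% lower, is near the latter. Summed intensity of the T-lineage list was 28509 to 35171 in N1IC and 2270 to 3934 in WT. The B-lineage sum was 3440 to 3980 in N1IC and 16364 to 26505 in WT, and the megakaryocyte sum was 952 to 1417 in N1IC and 6255 to 8440 in WT. Of 14 measured genes of proliferating cells, none passed the limma test, where 1 had an unadjusted p under 0.05, and their log2 fold changes lay between -0.21 and 0.20. RNA came from a mixed fraction, so fewer cells of a type and less RNA per cell cannot be told apart in any value below, and the part of these cell types in the results was not tested.

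At the hexokinase, aldolase and lactate dehydrogenase steps 1 isozyme was called and others were not, while all 3 phosphofructokinase genes were called. In all, 35 of the 46 members did not pass. Of the 46 members, 10 fell and 1 rose in N1IC at an adjusted p under 0.05 (limma, two-sided, Benjamini-Hochberg adjustment over all 18557 probe sets). That is 21.7% lower and 2.17% higher, beside 8.22% lower and 3.4% higher over all probe sets tested. The members that fell were the hexokinase Hk3, the phosphofructokinases Pfkl, Pfkm and Pfkp, the aldolase Aldoc, the enolase Eno2, the lactate dehydrogenase subunit Ldhb, the pyruvate dehydrogenase kinase Pdk2, the pyruvate carboxylase Pcx and the lactate exporter Slc16a3. The member that rose was Pfkfb3, which makes the main activator of phosphofructokinase. By pathway, 6 of 16 glycolysis members fell and 1 rose, 3 of 8 members at the fate of pyruvate fell, 1 of 4 transporters fell, and none of 5 pentose phosphate and none of 13 citrate cycle members passed, of which 1 and 2 had an unadjusted p under 0.05. The median log2 fold change was -0.31 for glycolysis, -0.24 for the fate of pyruvate, -0.20 for the transporters, 0.01 for the pentose phosphate pathway and -0.03 for the citrate cycle, beside -0.01 over all probe sets. With sex as a covariate, a fit that sets the N1IC arrays against the only female WT array, 3 members passed, namely Hk3, Eno2 and Ldhb. Without WT replicate 3, 7 members passed, 6 of them lower.

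**Figure D1:**
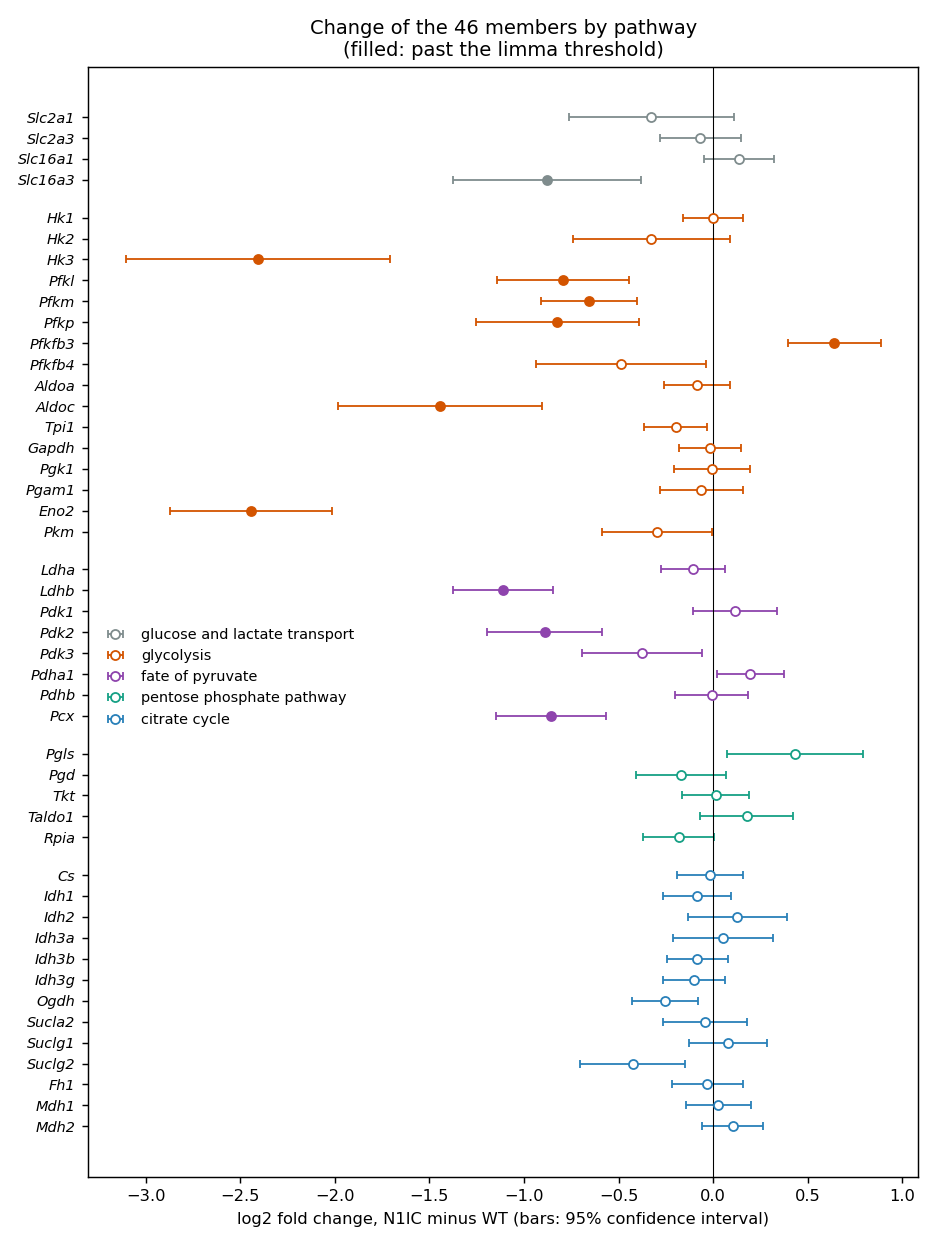
Log2 fold change (N1IC minus WT, x axis) of the 46 measured members, ordered by pathway, with the 95% confidence interval from limma before adjustment (n = 3 arrays a group); filled points passed the adjusted threshold. Of the filled points, 10 lie left of 0 and 1, Pfkfb3, lies right of it, and no filled point is in the pentose phosphate pathway or the citrate cycle. Hk1 is shown on a probe set that also names other genes.

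Glycolysis starts when a hexokinase traps glucose in the cell as glucose phosphate. Hk3, a hexokinase found mainly in blood and above all in myeloid cells, had log2 intensities of 6.96, 7.29 and 7.63 on the N1IC arrays, against 9.16, 10.11 and 9.82 on the WT arrays. The groups did not overlap, and the gap between them was wider than the range within either. Hk3 was 5.30-fold lower, with a log2 fold change of -2.41 ± 0.29 (SE, n = 3; limma adjusted p 0.00588). Its other probe set fell by 2.01. Hk2, an inducible hexokinase bound to mitochondria, had 10.83, 11.02 and 11.43 in N1IC and 11.50, 11.27 and 11.49 in WT, so that the highest N1IC array lay within the WT range. Its log2 fold change of -0.33 had an adjusted p of 0.292 by limma. The probe set that stands for Hk1, the widely expressed hexokinase, also names the ribosomal protein gene Rpl17 and related sequences, and its level near 13.94 on all arrays cannot be given to Hk1. On the brighter of its 2 probe sets that name Hk1 alone, Hk1 stood at 10.81 in N1IC and 10.93 in WT, a difference of -0.12 that did not pass.

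Hk3 is also used by mature myeloid cells, and the markers of mature neutrophils and monocytes are given beside it. The summed intensity of the list was 25165 to 37808 in N1IC and 32287 to 84697 in WT, with WT replicate 1 lowest among the WT arrays. All 11 measured markers had a log2 fold change below 0, from -2.65 to -0.39, and 2 of them fell. Cd14, a receptor for bacterial lipopolysaccharide, had 6.59, 6.31 and 6.91 in N1IC, against 8.16, 9.10 and 8.98 in WT. Cxcr2, a chemokine receptor of neutrophils, had 5.17, 5.39 and 6.16 in N1IC, against 6.64, 7.64 and 7.37 in WT. For these 2 markers, and for Hk3, the groups did not overlap and WT replicate 1 was the lowest WT array, and for the 9 other markers the groups overlapped. The part of these cells in the fall of Hk3 was not tested. Without WT replicate 1, the log2 fold change of Hk3 was -2.67 (limma adjusted p 0.00412).

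**Figure D2:**
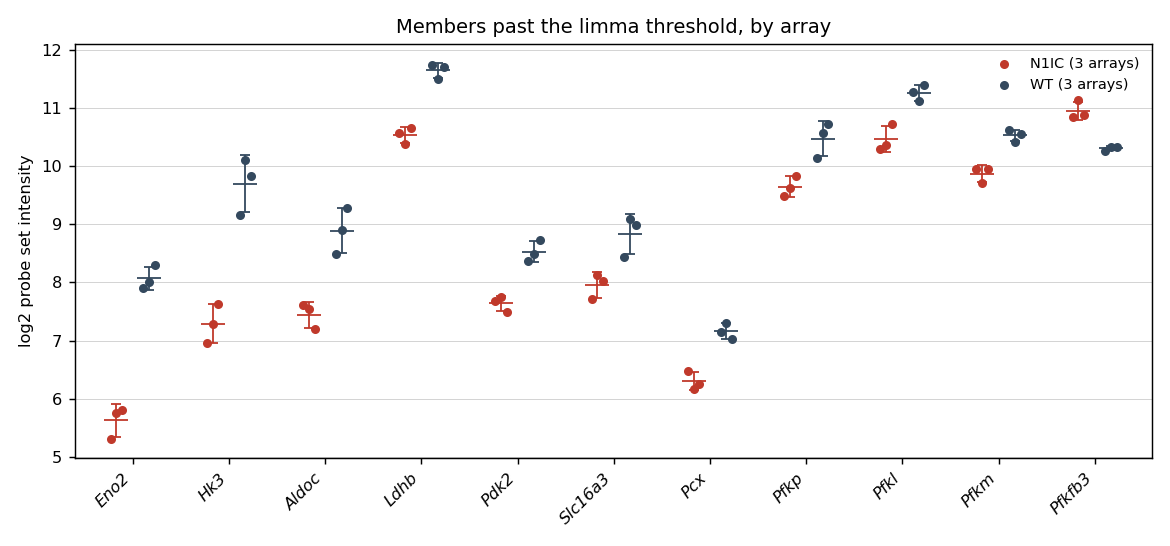
Log2 probe set intensity (y axis) of the 11 members past the threshold, ordered from the largest fall to the rise, with each of 3 N1IC arrays (left, red) and 3 WT arrays (right, dark) as a point and the mean with its SD as a bar. No overlap is seen for any of the 11, and the gap is widest for Eno2 and Hk3.

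Phosphofructokinase commits sugar to glycolysis, and its subunits are named after liver, muscle and platelet. All 3 fell. Pfkl, the liver type, had 10.30, 10.36 and 10.73 in N1IC, against 11.27, 11.11 and 11.39 in WT. Pfkm, the muscle type, had 9.95, 9.71 and 9.95 in N1IC, against 10.61, 10.42 and 10.55 in WT. Pfkp, the platelet type, had 9.49, 9.62 and 9.83 in N1IC, against 10.13, 10.56 and 10.72 in WT. For each subunit the lowest WT array lay above the highest N1IC array, by the narrowest margin for Pfkp. The log2 fold changes were -0.79 ± 0.14 for Pfkl, -0.66 ± 0.10 for Pfkm and -0.82 ± 0.18 for Pfkp (SE, n = 3), with adjusted p of 0.0212, 0.0141 and 0.0363 by limma. The dimmest of 3 Pfkl probe sets had a log2 fold change of 0.39 that did not pass, and the mean over the Pfkl probe sets did not pass either, at -0.39. Leaving out any 1 array other than WT replicate 1 ended the call of Pfkp, at adjusted p of 0.0656 to 0.115 by limma, and leaving out N1IC replicate 1 or 2 or WT replicate 1 or 3 ended that of Pfkl, at 0.0514 to 0.0717. Pfkm was lost without WT replicate 3, at an adjusted p of 0.0551 by limma. The summed level of the markers of megakaryocytes, which make platelets, was also lower, as was that of the B lineage, as given above. The part of these cells in the falls of Pfkp, Pfkl and Pfkm was not tested.

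Pfkfb3 and Pfkfb4 are bifunctional enzymes that set the level of the fructose bisphosphate which activates phosphofructokinase. Pfkfb3, in which the kinase activity dominates, had 10.84, 11.13 and 10.87 in N1IC, against 10.27, 10.33 and 10.33 in WT. Every N1IC array was above every WT array, and the WT arrays lay close together. Pfkfb3 rose 1.56-fold, with a log2 fold change of 0.64 ± 0.10 (SE, n = 3; limma adjusted p 0.0135). Its dimmer probe set, at 0.23, did not pass, nor did the mean of both. Pfkfb4 had 7.10, 7.16 and 7.43 in N1IC and 7.35, 7.86 and 7.95 in WT, which overlap. Its log2 fold change was -0.49 (limma adjusted p 0.158), and without WT replicate 1 it was -0.67 with an adjusted p of 0.0376.

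Aldolase splits the sugar, and Aldoc, the aldolase known from brain, had 7.61, 7.54 and 7.19 in N1IC, against 8.50, 8.90 and 9.28 in WT. The groups did not overlap, and the call of this 2.72-fold fall held in all 6 fits that left out an array. The log2 fold change was -1.44 ± 0.22 (SE, n = 3; limma adjusted p 0.0128). Its dimmer probe set stood at -0.88 and did not pass. Aldoa, the main aldolase of muscle and most other tissues, differed by -0.09 on its brightest probe set, and its other 4 probe sets lay between -0.05 and 0.03. The difference between the change of Aldoc and that of Aldoa was -1.36 ± 0.27 log2 units (SE, n = 3), for a pair picked after the values were seen and given as a description. Its exact permutation p of 0.1 is the smallest that 3 against 3 arrays allow, as for each of the 5 isozyme pairs computed.

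Enolase makes phosphoenolpyruvate near the end of glycolysis. Eno2, the form known from neurons, had 5.31, 5.76 and 5.81 in N1IC, against 7.91, 8.002 and 8.30 in WT. It had the largest change of any member, 5.43-fold lower, at 5.63 ± 0.28 in N1IC and 8.07 ± 0.20 in WT (SD, n = 3). The adjusted p was 0.00136 by limma and lay between 0.000837 and 0.0279 over 15 alternative settings. The N1IC signal is dim, no detection call was used here, and Eno2 has 1 probe set.

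The remaining measured steps of glycolysis did not pass the test. Gapdh, which oxidises the triose, had 14.02, 14.08 and 14.10 in N1IC and 14.09, 14.10 and 14.07 in WT. The array maximum was 14.54 to 14.65, so Gapdh lay near the top of the intensity range, and its probe set also names 4 related sequences. The 3 control probe sets for Gapdh, kept out of the test, differed by -0.02, 0.03 and -0.02. Pkm, the pyruvate kinase of most tissues outside liver, had 12.37, 12.72 and 12.72 in N1IC, all below 12.95, 12.92 and 12.82 in WT, with a log2 fold change of -0.30 (limma adjusted p 0.177). Tpi1, which interconverts the trioses, stood at -0.20, Pgam1, a mutase, at -0.06 and Pgk1, an ATP-forming kinase on the X chromosome, at -0.00. With an intensity trend in the variance Tpi1 passed, at an adjusted p of 0.0227 by limma, within a range of 0.0227 to 0.471 over its alternatives.

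Short motifs were looked up in the promoters of the members, as a description. Windows of 250 bases before to 50 bases after each start site were taken from RefSeq, GRCm38.p6, for 44 of the 46 measured members. Searched on both strands were TGGGAA, the core bound by the Notch partner RBPJ, ACGTG and GCGTG, the cores bound by hypoxia-inducible factors, and CACGTG, the E-box of Myc and related factors, which contains ACGTG. Shown are all windows of Hk3, Eno2 and Ldhb, the members that passed in all 15 alternative fits, and both of Pfkfb3, the member that rose. Capitals mark the motifs.
Hk3 chr13:55021336-55021635 (- strand): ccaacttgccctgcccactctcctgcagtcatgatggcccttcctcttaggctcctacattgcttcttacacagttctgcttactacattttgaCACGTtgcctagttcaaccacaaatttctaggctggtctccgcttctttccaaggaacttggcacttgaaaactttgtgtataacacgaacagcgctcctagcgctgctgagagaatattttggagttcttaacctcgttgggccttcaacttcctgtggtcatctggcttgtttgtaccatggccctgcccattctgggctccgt
Eno2 chr6:124769624-124769923 (- strand): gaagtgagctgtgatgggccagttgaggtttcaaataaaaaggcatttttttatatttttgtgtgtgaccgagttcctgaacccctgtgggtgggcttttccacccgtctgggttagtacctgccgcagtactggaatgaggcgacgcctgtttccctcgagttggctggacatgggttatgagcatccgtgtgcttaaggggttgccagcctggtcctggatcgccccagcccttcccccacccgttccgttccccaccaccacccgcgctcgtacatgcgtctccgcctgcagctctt
Ldhb chr6:142507908-142508207 (- strand): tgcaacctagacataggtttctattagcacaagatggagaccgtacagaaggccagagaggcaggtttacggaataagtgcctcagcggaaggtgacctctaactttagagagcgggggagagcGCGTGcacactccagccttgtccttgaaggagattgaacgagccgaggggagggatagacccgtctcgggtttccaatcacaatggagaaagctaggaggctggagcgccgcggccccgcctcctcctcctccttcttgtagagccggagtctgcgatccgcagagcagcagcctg
Pfkfb3 chr2:11553880-11554179 (- strand): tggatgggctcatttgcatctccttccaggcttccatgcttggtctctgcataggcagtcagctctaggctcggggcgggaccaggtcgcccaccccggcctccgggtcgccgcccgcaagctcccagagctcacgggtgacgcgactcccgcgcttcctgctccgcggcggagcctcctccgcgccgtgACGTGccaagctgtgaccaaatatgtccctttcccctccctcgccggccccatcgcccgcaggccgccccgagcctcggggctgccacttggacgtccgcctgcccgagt
Pfkfb3 chr2:11502041-11502340 (- strand): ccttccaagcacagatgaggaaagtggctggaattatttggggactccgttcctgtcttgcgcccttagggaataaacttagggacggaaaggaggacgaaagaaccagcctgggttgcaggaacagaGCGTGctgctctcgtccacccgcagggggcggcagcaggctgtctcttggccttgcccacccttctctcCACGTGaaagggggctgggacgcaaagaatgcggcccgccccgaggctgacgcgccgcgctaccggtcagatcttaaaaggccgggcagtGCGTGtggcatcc
None of these 5 windows holds TGGGAA. The Hk3 window holds ACGTG, on its reverse strand, at position -156 from the start site, that of Ldhb holds GCGTG at -126, and that of Eno2 holds none of the motifs. The upstream Pfkfb3 window holds ACGTG at -60, and the downstream one holds 1 CACGTG, which reads as ACGTG on both strands, and 2 GCGTG. Over the 18 windows of the 11 members that passed, 2 held TGGGAA, 9 ACGTG, 8 GCGTG and 4 CACGTG, while 25.6%, 19.6%, 32.4% and 7.15% of all 32851 windows did. By gene, TGGGAA was found in 1 of the 11 members that passed and in 10 of the 33 other members with a window, ACGTG in 7 and 15, GCGTG in 6 and 23, and CACGTG in 4 and 3. Where there is no match, these letters are not in this window, and nothing more can be read from it.

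At the fate of pyruvate, Ldhb, the lactate dehydrogenase subunit typical of heart, fell. It had 10.56, 10.39 and 10.65 in N1IC, against 11.74, 11.50 and 11.70 in WT. The gap between the groups was wider than the range within either. Ldhb was 2.16-fold lower, with a log2 fold change of -1.11 ± 0.11 (SE, n = 3; limma adjusted p 0.00336). All 4 of its probe sets passed, with falls of 1.11 to 1.22 on the log2 scale. Ldha, the muscle-type subunit that favours lactate, had 13.14, 13.21 and 13.22 in N1IC and 13.30, 13.33 and 13.26 in WT. Its log2 fold change of -0.10 did not pass (adjusted p 0.407 by limma), with a 95% interval of -0.27 to 0.06. The changes of Ldhb and Ldha differed by -1.01 ± 0.12 log2 units (SE, n = 3), again as a description of a pair chosen after the values were seen.

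Pyruvate dehydrogenase kinases shut the pyruvate dehydrogenase complex by phosphorylation. Pdk2, a widely expressed one, had 7.68, 7.74 and 7.50 in N1IC, against 8.37, 8.49 and 8.73 in WT. It was 1.85-fold lower without overlap of the groups, by -0.89 ± 0.12 log2 units (SE, n = 3; limma adjusted p 0.00942). Pdk1, the kinase induced by hypoxia, had 12.68, 12.92 and 12.70 in N1IC and 12.68, 12.62 and 12.66 in WT, and did not pass at 0.12. Pdk3, an X-linked kinase, had 10.11, 10.40 and 10.25 in N1IC, just below 10.82, 10.45 and 10.62 in WT, and did not pass at -0.38 (adjusted p 0.131 by limma). Pdha1, the X-linked catalytic alpha subunit of the complex, had 12.54, 12.66 and 12.58 in N1IC, above 12.43, 12.36 and 12.41 in WT. On this probe set its log2 fold change of 0.20 did not pass (adjusted p 0.145 by limma). Its dimmer probe set rose by 0.63, with an adjusted p of 0.0137 by limma over all probe sets, and it also passed on the mean of both and with an intensity trend. Pdhb, the beta subunit, stood at -0.01. Pdk3, Pdha1, Pgk1 and the citrate cycle gene Idh3g lie on the X chromosome, and the sex of the mice differs between the groups.

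Pcx, which turns pyruvate into oxaloacetate, had 6.48, 6.17 and 6.26 in N1IC, against 7.15, 7.31 and 7.02 in WT. The signal was dim in both groups, yet the groups did not overlap. Pcx was 1.81-fold lower, by -0.85 ± 0.12 log2 units (SE, n = 3; limma adjusted p 0.00952). Of 4 control probe sets for Pcx, the one at the 3' end differed by -0.87, and the others, whose group means lay between 5.00 and 5.84 in N1IC and between 5.01 and 5.81 in WT, differed by -0.02 to 0.03.

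**Figure D3:**
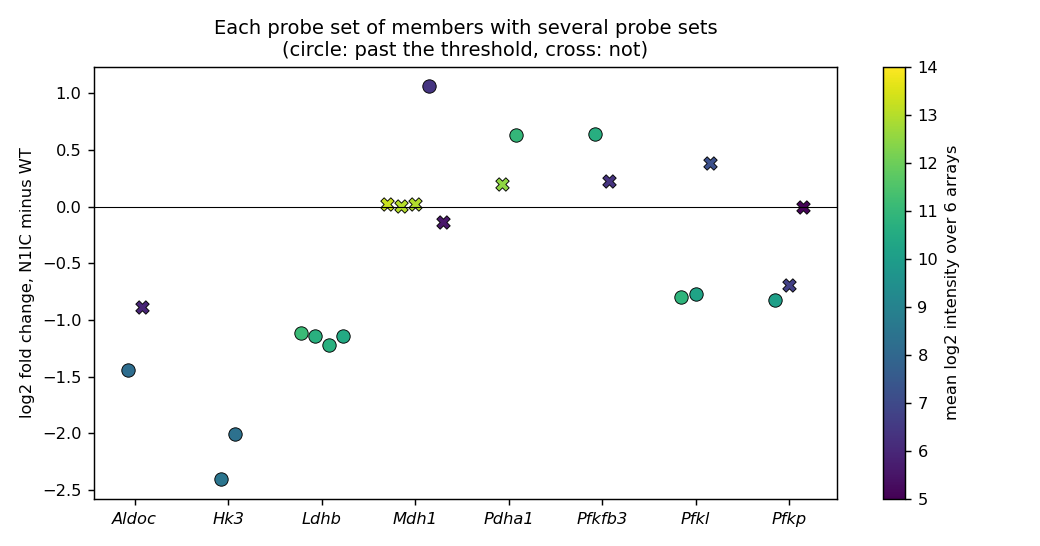
Log2 fold change (N1IC minus WT, y axis) of every probe set of the 8 members that have several probe sets and at least 1 past the threshold when each is tested on its own; colour gives the mean log2 intensity over the 6 arrays, and crosses did not pass. All 4 probe sets of Ldhb and both of Hk3 lie below 0, while a dim probe set of Mdh1 lies apart from its 4 others.

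Among the transporters, Slc16a3, which exports lactate from glycolytic cells, had 7.71, 8.13 and 8.03 in N1IC, against 8.44, 9.09 and 8.98 in WT. The groups did not overlap, although WT replicate 1 came near the N1IC arrays. Its log2 fold change was -0.88 ± 0.20 (SE, n = 3; limma adjusted p 0.0450). The call is a borderline one, since it was lost in 5 of the 6 fits that left out an array with adjusted p of 0.0825 to 0.134 by limma, and held without WT replicate 1, at 0.0157. Slc16a1, a monocarboxylate transporter of most cells, had 12.39, 12.52 and 12.40 in N1IC and 12.33, 12.24 and 12.33 in WT, and did not pass at 0.14. Slc2a1, the basal glucose transporter, had 11.28, 11.40 and 11.53 in N1IC and 11.98, 11.35 and 11.85 in WT. WT replicate 2, the female, was thus within the N1IC range, and the log2 fold change of -0.33 did not pass (adjusted p 0.315 by limma). Slc2a3, a high-affinity glucose transporter, stood at -0.07.

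No measured member of the pentose phosphate pathway passed. Pgls, the lactonase of its oxidative arm, had 11.84, 11.70 and 11.83 in N1IC, above 11.05, 11.51 and 11.51 in WT. WT replicate 1 was the lowest array, and the log2 fold change of 0.43 had an adjusted p of 0.123 by limma. Pgd, the dehydrogenase that follows, stood at -0.17. In the non-oxidative arm, Rpia, an isomerase of ribose phosphate, had 12.34, 12.28 and 12.17 in N1IC, below 12.46, 12.45 and 12.42 in WT, at -0.18 (limma adjusted p 0.198). Tkt, a transketolase, had 13.85, 13.88 and 13.95 in N1IC and 13.83, 13.94 and 13.87 in WT, which overlap throughout. Taldo1, a transaldolase, stood at 0.18.

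In the citrate cycle the 13 members lay between -0.42 and 0.13, and 5 were above 0 and 8 below. Suclg2, a subunit of succinyl-CoA ligase that forms GTP, had 10.94, 11.09 and 10.86 in N1IC, below 11.46, 11.20 and 11.50 in WT. Its log2 fold change was -0.42 with a 95% interval of -0.70 to -0.15 (limma adjusted p 0.0680). Ogdh, part of the oxoglutarate dehydrogenase complex, had 10.86, 10.89 and 10.90 in N1IC, below 11.12, 11.09 and 11.21 in WT. The arrays of each group were close together and the difference small, at -0.26 (limma adjusted p 0.0760). Both passed when only the brighter 60% of genes were tested, with adjusted p by limma of 0.0492 for Suclg2 and 0.04998 for Ogdh, within ranges of 0.0451 to 0.453 and 0.04998 to 0.425 over their alternatives. Mdh2, the mitochondrial malate dehydrogenase, had 13.36, 13.36 and 13.35 in N1IC, just above 13.28, 13.24 and 13.24 in WT, at 0.10. Its cytosolic partner Mdh1 stood at 0.03, but a dim probe set of Mdh1 rose by 1.06. Citrate synthase, Cs, stood at -0.02, the isocitrate dehydrogenases Idh1 and Idh2 at -0.08 and 0.13, and the subunits Idh3a, Idh3b and Idh3g of the NAD-dependent enzyme at 0.05, -0.08 and -0.10. The dimmer probe sets of Cs stood at 0.39 and 0.07 and that of Idh2 at -0.29, and none of them passed. Sucla2 and Suclg1, the other succinyl-CoA ligase subunits, stood at -0.04 and 0.08, and Fh1, the fumarase, at -0.03.

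The calls lay among probe sets of low and middle brightness. Of 26 members with a mean log2 intensity of at least 12, none passed and 3 had an unadjusted p under 0.05, while 5.26% of 1787 probe sets of that brightness passed. The 26 include Hk1 on its shared probe set, whose level cannot be given to Hk1. The brighter probe set that names Hk1 alone had a mean of 10.87. From 10 to 12, 5 of 13 members passed, beside 13.2% of 4336 probe sets. From 8 to 10, 4 of 4 passed, beside 21.6% of 3300, and below 8, 2 of 3, beside 8.51% of 9134. The median size of the log2 fold change in the brightest class was 0.0852 for the members and 0.0904 for all its probe sets. Whether the range of the arrays limits changes at that brightness was not tested.

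**Figure D4:**
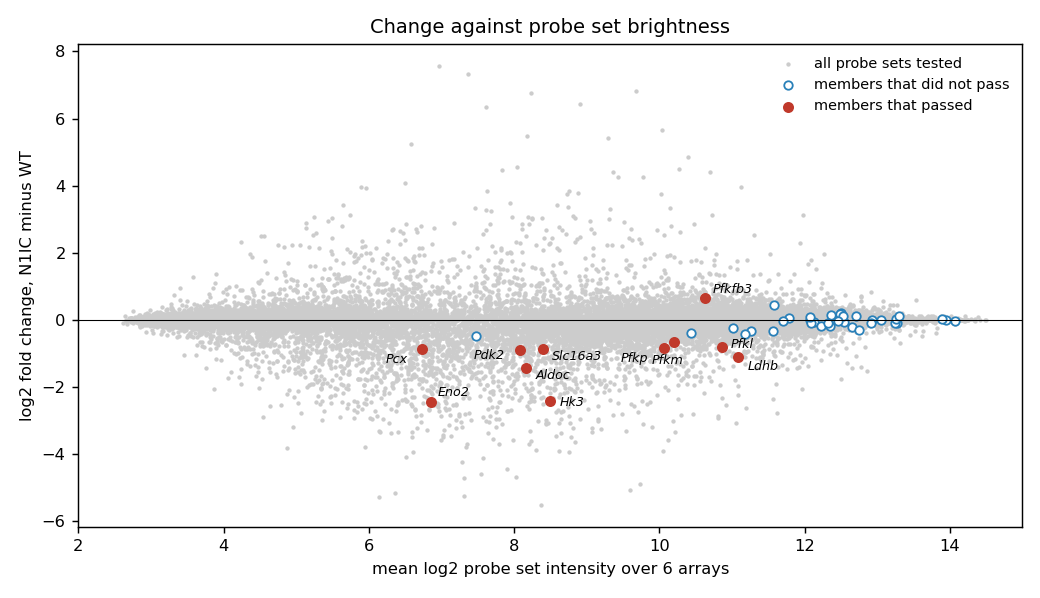
Log2 fold change (N1IC minus WT, y axis) against mean log2 intensity over the 6 arrays (x axis) for all 18557 probe sets tested (grey), members that did not pass (open) and members that passed (red, named). The 26 members at 12 or above, with Hk1 on its shared probe set among them, lie close to 0, and the red points lie to the left of 12.

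Other genes of the same pathways were read from lists chosen with earlier results of these data known. Their counts stand beside 8.22% lower and 3.4% higher over all probe sets tested, and several lists lie near these shares. Glycogen phosphorylase, which releases glucose units from stored glycogen, has 3 genes, and all 3 fell. Pygl, the liver form, was 2.38-fold lower, at 9.73 ± 0.09 in N1IC and 10.98 ± 0.11 in WT (SD, n = 3; limma adjusted p 0.00145). Pygb, the brain form, fell by 0.52, and Pygm, the muscle form, by 0.86. Pck2, the mitochondrial phosphoenolpyruvate carboxykinase, fell by 0.39. In all, 4 of 11 measured genes of gluconeogenesis and glycogen passed as lower and none as higher. The largest change in this list was that of Fbp1, at 1.51, which did not pass (limma adjusted p 0.0952). Fbp1 had 12.70, 13.26 and 12.78 in N1IC, above 12.45, 10.79 and 10.96 in WT. Of 21 further glycolysis and glucose transport genes, 1 rose (4.76%) and 2 fell (9.52%), which is near the shares over all probe sets. Pgam2, a muscle phosphoglycerate mutase, rose 3.22-fold, at 9.48 ± 0.12 in N1IC and 7.79 ± 0.52 in WT, while the transporters Slc2a8 and Slc2a9 fell by 0.91 and 0.75.

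Of 14 further genes of pyruvate use, 2 rose and 1 fell (14.3% and 7.14%, beside 3.4% and 8.22% over all probe sets). Slc16a7, a high-affinity monocarboxylate transporter, had 10.94, 11.44 and 11.30 in N1IC, against 10.09, 9.86 and 9.93 in WT. It rose 2.41-fold (limma adjusted p 0.0056), while its relative Slc16a3 fell as given above. Pdp2, a phosphatase that reopens the pyruvate dehydrogenase complex, rose 1.59-fold, at 10.88 ± 0.10 in N1IC and 10.21 ± 0.12 in WT. Pdk4, a kinase that shuts it, had 6.21, 4.34 and 6.37 in N1IC, against 8.05, 8.06 and 7.86 in WT. It fell by 2.35, and N1IC replicate 2 was the lowest array. Of 8 further pentose phosphate genes, 1 rose (12.5%, beside 3.4% over all probe sets) and none fell. That was Tktl1, a transketolase-like gene, 3.76-fold higher, at 7.57 ± 0.51 in N1IC and 5.66 ± 0.47 in WT. Of the 8, 5 had an unadjusted p under 0.05 by limma. In 4 every N1IC array lay above every WT array, and in 1 every N1IC array lay below. Of 16 further genes of the citrate cycle, its carriers and glutamine use, the citrate carrier Slc25a1 fell by 0.62 and none rose. That is 6.25% lower, beside 8.22% over all probe sets.

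Of 10 measured genes of the hypoxia-inducible factors and their oxygen sensors, 1 fell (10%, beside 8.22% over all probe sets) and none rose. That was Hif1an, an inhibitor of these factors, by 0.45, while Hif1a itself, named after its values were seen, stood at 0.06. Of 13 hypoxia targets outside glucose metabolism, 1 fell (7.69%, again near the share over all probe sets) and none rose. That was Bnip3, a mitochondrial protein of mitophagy, 3.31-fold lower, at 9.46 ± 0.09 in N1IC and 11.19 ± 0.15 in WT (SD, n = 3; limma adjusted p 0.000938). Of 23 energy sensors and related regulators, 2 rose and 4 fell (8.70% and 17.4%, beside 3.4% and 8.22% over all probe sets). Prkaa2, a catalytic subunit of the AMP-activated kinase, was 4.84-fold lower, at a dim 4.35 ± 0.12 in N1IC and 6.62 ± 0.46 in WT, and its partner Prkab1, a regulatory subunit, rose 1.73-fold. Tsc2, an inhibitor of mTOR signalling, fell by 0.46, and Txnip, an inhibitor of glucose uptake, by 0.82.

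**Figure D5:**
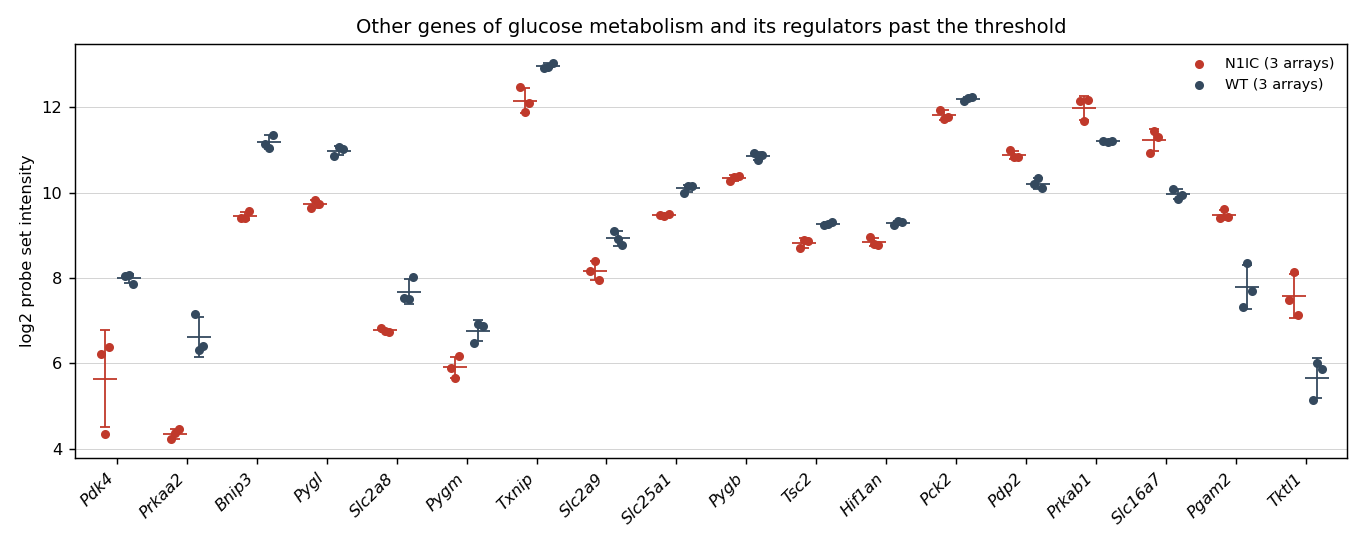
Log2 probe set intensity (y axis) of up to 4 genes a list, by smallest p, that passed the threshold in the lists of other glucose metabolism genes and their regulators, with each of 3 N1IC arrays (left, red) and 3 WT arrays (right, dark) as a point and the mean with its SD as a bar. Pdk4 has the widest N1IC spread with N1IC replicate 2 at 4.34, and Pygl, Bnip3 and Slc25a1 have narrow groups that lie apart.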

How the data were processed

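Expression was measured on 6 Affymetrix arrays from amplified total RNA. The authors deposited linear intensities per probe set, made with RMA, per the submitters' processing notes; its version is not given in the sources used here. Log2 was taken of these intensities. Probe sets were named from the platform annotation, with symbols updated by gene ID: of 45101 probe sets, 34945 name 1 symbol, 932 several and 9160 none, and 64 controls were left out. Each gene was read on its brightest probe set by the mean of the 6 arrays, which left 18557 probe sets for 19324 genes. The 2 groups were set against each other with limma 3.58.1 under R 4.3.3, using lmFit, then eBayes, without covariates. Its two-sided p-values were adjusted by Benjamini-Hochberg over the 18557 probe sets, at a threshold of 0.05. Log2 fold changes subtract the mean of WT from that of N1IC. The fit was run on simulated data with independent normal noise as a check of the code alone, which tells nothing about sex or the mix of cells. No array pair was identical. Each array comes from a mouse of its own as far as the labels say, and their number limits the precision.

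The members and the other gene lists were chosen with earlier results of these data known. Values by array are given for each member past the threshold and, in each pathway, for the 2 other members with the largest change and the brightest member, and some further members are given so beside an isozyme or relative. Genes of other lists are named when past the threshold, at most 4 a list by smallest p. Kit, Hif1a and Fbp1, which did not pass, are named outside this rule. Markers of other cells are given by counts or sums, apart from Cd14 and Cxcr2. The replicate numbers were not taken to pair the samples. Residuals of same-numbered arrays correlated at -0.08, -0.07 and 0.07, while those of N1IC replicate 2 reached 0.16 with WT replicate 1 and -0.14 with WT replicate 3. With so few arrays this cannot show that pairing is absent. Alternatives covered normalization, probe set choice, a brightness filter, the variance trend, the threshold, sex, a replicate block and leaving out each array. Promoter windows and their coordinates come from RefSeq, GRCm38.p6.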

Additional observations from a re-analysis of the deposited data

How the results depend on the processing

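Hk3, Eno2 and Ldhb kept their call in all 15 alternative fits, with limma adjusted p of 0.00299 to 0.0355, 0.000837 to 0.0279 and 0.00133 to 0.0452, and no member that passed changed direction. The replicate block left 1281 genes past the threshold (355 higher, 926 lower), against 2157 (631 higher, 1526 lower) without it, and 9 of the 11 members, with Aldoc at an adjusted p of 0.0615 and Pdk2 at 0.0511 by limma. With sex as a covariate, 444 genes passed (116 higher, 328 lower), and of the members 3 lower and 0 higher, with 0 lower transporters, 2 lower and 0 higher in glycolysis and 1 lower at the fate of pyruvate. At a threshold of 0.01, 751 genes passed (209 higher, 542 lower), and 5 members, all lower, with 0 transporters and 2 in glycolysis lower and 0 in glycolysis higher. At 0.1, 3315 genes passed (1064 higher), and 2 citrate cycle members were lower. Slc16a3 was lost with repeated quantile normalization and when probe sets were tested singly, which left 0 transporters lower. With the mean of a gene's probe sets, 0 glycolysis members were higher and 1 at the fate of pyruvate, Pdha1, was. With an intensity trend, 2 members were higher, 1 of them at the fate of pyruvate, and 1 citrate cycle member, Suclg2, was lower. Among the brighter 60% of genes, 2 citrate cycle members were lower. Leaving out 1 array gave 1164 to 1966 genes (333 to 512 higher, 831 to 1454 lower) and 7 to 11 members (6 to 10 lower), with 3 to 6 in glycolysis and 0 to 1 transporters lower. The lowest counts of genes and of members came without WT replicate 3. No scaling moved the median of all genes by as much as 0.1 log2 units. Dim probe sets, such as those of Eno2, Pcx and Pdk2, were read without a detection call.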
